A study of Mus musculus with 44 samples.

Results

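Nr1d1, Nr1d2, Rora and Nfil3 encode the REV-ERB alpha, REV-ERB beta and ROR alpha nuclear receptors and the repressor NFIL3 (also called E4BP4). They were chosen by name as the genes of the circadian loop that acts through the ROR response element (RORE), and the transcripts of each gene were summed in kidney RNA from wild-type (WT) and Bmal knockout (KO) mice. All 4 genes were found among 24733 genes with any value, and all 4 had a mean of at least 1 TPM, as did 12874 genes in all. TPM is an abundance per length of transcript, scaled to the same total in each library.

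The clock protein BMAL1, product of Arntl, binds E-boxes together with CLOCK or NPAS2 and activates the REV-ERB genes. REV-ERB proteins recruit the NCOR and HDAC3 corepressors to ROREs and repress Arntl, Clock, Npas2, Cry1 and Nfil3, whereas ROR receptors bind the same element and activate. NFIL3 represses genes with a D-box, the element through which DBP, TEF and HLF activate.

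Polyadenylated RNA was measured in 24 kidney libraries from 129SV mice aged 8 to 12 postnatal weeks. All mice were on night-restricted feeding, so the controls carried the same feeding schedule as the knockouts. WT mice and mice lacking Bmal (KO) were sampled at zeitgeber times (ZT) 0, 4, 8, 12, 16 and 20, with 2 libraries, A and B, in each of the 12 groups. The labels name no Cre driver and do not say whether the 2 libraries came from separate or pooled animals, so p-values measure the spread between libraries.

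Each library summed to between 999999 and 1000001 TPM, so its depth is not known and no counting interval can be given. Transcripts of the targeted gene were still counted: Arntl was at 4.19 to 6.28 TPM in the 12 KO libraries and at 0.295 to 12.9 TPM in WT. Its range over all times thus does not separate the genotypes. Within a time, KO lay below WT at ZT0 and ZT20 and above WT at ZT8, ZT12 and ZT16, without overlap. At ZT4 the genotypes overlapped (6.16 and 4.71 TPM in WT, 6.28 and 4.98 in KO), so Arntl does not check the labels of that time. The library labelled KO ZT4 A stood apart. On the first principal component of all genes (26.1% of the variance) it lay at -8.31, next to the WT range of -44.8 to -9.42, and the remaining 11 KO libraries ranged from 18.4 to 51.0. Genotype and rhythm results are therefore given with and without it. Defining markers of the kidney were present, among them the proximal tubule transporter Slc34a1 at 1287 to 1803 TPM over all libraries, and adrenal Cyp11b1 did not exceed 0.0399 TPM. The summed level of 2 collecting duct markers (Aqp2, Fxyd4) was 91.7 to 184 TPM in WT and 128 to 351 TPM in KO, and both were called higher in KO. Both podocyte markers (17.6 to 30.8 summed TPM in WT, 30.6 to 42.6 in KO) and both intercalated cell markers (19.8 to 37.4 and 29.6 to 50.1) were also called higher, as were 1 of 3 proximal tubule, 1 of 2 thick ascending limb, 1 of 2 endothelial and the 1 distal convoluted tubule marker, where 50.9% of all genes tested were called higher. Thick ascending limb Umod and liver Alb were called lower, no tested immune or fat marker was called, and no adrenal marker reached the level for testing. Their part in the results below was not tested. In bulk tissue, fewer cells of a type and less RNA per cell cannot be told apart.

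The sequence before the start of each gene was read from RefSeq (GRCm38.p6, the C57BL/6J reference and not the 129SV genome) and searched on both strands. Nr1d1 (ENSMUSG00000020889, minus strand of chromosome 11) had 1 E-box variant, CACGTT, which reads AACGTG on the strand of the gene, 28 to 23 bases before its start. The 250 bases before the start, at chr11:98775378-98775627, are shown with that variant in capitals. The same stretch of its paralog Nr1d2 (ENSMUSG00000021775), at chr14:18239107-18239356 on the minus strand, is shown with its AGGTCA in capitals. Those letters match the core of a RORE but not the longer form TAGGTCA.
Nr1d1: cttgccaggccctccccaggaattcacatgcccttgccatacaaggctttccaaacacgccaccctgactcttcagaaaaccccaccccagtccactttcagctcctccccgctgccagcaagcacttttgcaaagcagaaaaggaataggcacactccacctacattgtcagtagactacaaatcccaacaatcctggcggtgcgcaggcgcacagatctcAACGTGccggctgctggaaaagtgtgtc
Nr1d2: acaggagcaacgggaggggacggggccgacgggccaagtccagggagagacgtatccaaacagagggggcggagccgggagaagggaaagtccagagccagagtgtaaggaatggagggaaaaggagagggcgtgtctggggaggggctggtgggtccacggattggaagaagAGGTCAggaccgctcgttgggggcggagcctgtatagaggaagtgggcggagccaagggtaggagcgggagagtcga
In windows of 300 bases around 32851 RefSeq starts (250 before, 50 after), CACGTT occurred in 4.68% and AGGTCA in 16.3%. The canonical E-box CACGTG (7.15% of windows) and the D-box (TTATGTAA or TTACGTAA, 1.06%) were found in none of the 4 windows. The Rora window held none of these motifs.

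Nfil3 (ENSMUSG00000056749, minus strand of chromosome 13) carried the longer form TAGGTCA, which 2.61% of windows held and which contains AGGTCA. It lay 12 to 6 bases before the RefSeq start, which is inside the gene as GENCODE draws it. Of the RORE-driven clock genes Arntl, Clock, Npas2 and Cry1, Arntl and Clock had an AGGTCA. The sites are set side by side as 30 bases read on the strand of the motif, with the core in capitals.
Nr1d2, chr14:18239166-18239195, minus strand: gattggaagaagAGGTCAggaccgctcgtt
Nfil3, chr13:52981034-52981063, plus strand: atgtgtgttagtAGGTCAgttccgagcgcc
Arntl, chr7:113207530-113207559, plus strand: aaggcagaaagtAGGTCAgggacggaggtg
Clock, chr5:76303604-76303633, plus strand: ctgtcatctgtcAGGTCAgaggccaaagct
Of the sites shown, only those of Nfil3 and Arntl have a T just before the core. The Nfil3 and Clock cores lie on the strand opposite to the gene, and the Arntl core lies 31 to 36 bases after the start. The Clock core lies 119 to 114 bases before its RefSeq start, which is also inside the gene as GENCODE draws it (76209868 to 76304792, minus strand). A match is a description of the letters and not of binding.

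Nr1d1, whose product represses through ROREs, rose and fell steeply over the day in WT kidney. Libraries A and B of WT held 2.91 and 3.28 TPM at ZT0, 22.0 and 33.0 at ZT4, 44.3 and 38.4 at ZT8, 20.6 and 21.3 at ZT12, 4.79 and 5.06 at ZT16, and 1.42 and 1.93 at ZT20. The order of the times was ZT8, ZT4, ZT12, ZT16, ZT0 and ZT20, and no neighbours in that order overlapped. The mean at ZT8 was 24.7-fold that at ZT20. In KO, A and B held 2.02 and 1.53 TPM at ZT0, 23.8 and 2.75 at ZT4, 2.30 and 1.81 at ZT8, 2.06 and 3.46 at ZT12, 1.92 and 1.80 at ZT16, and 1.23 and 2.41 at ZT20. The 23.8 TPM belongs to the library labelled KO ZT4 A and lies between the WT values of that time. The other 11 KO libraries stayed between 1.23 and 3.46 TPM, with a median of 2.02 TPM, or 4.88% of the WT mean at ZT8 and 1.21-fold the WT mean at ZT20.

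Nr1d2, the paralog with the same DNA-binding specificity, reached a broader WT maximum. WT libraries A and B held 4.32 and 4.33 TPM at ZT0, 14.9 and 20.6 at ZT4, 28.4 and 34.3 at ZT8, 30.8 and 29.2 at ZT12, 20.2 and 20.9 at ZT16, and 5.10 and 5.93 at ZT20. ZT8 and ZT12 overlapped, as did ZT16 and ZT4, and the other neighbours in the order (ZT20, then ZT0) did not. KO libraries A and B held 1.45 and 1.19 TPM at ZT0, 14.7 and 2.20 at ZT4, 1.94 and 3.21 at ZT8, 2.10 and 2.57 at ZT12, 0.893 and 2.33 at ZT16, and 0.956 and 1.48 at ZT20. Without the library labelled KO ZT4 A, every KO library lay below every WT library, which held for 1.77% of the 12874 genes tested. The median of those 11 KO libraries was 1.94 TPM, 0.449-fold the lowest WT mean (ZT0), so Nr1d2 stood under its WT trough where Nr1d1 stood close to it.

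Rora, the activating receptor of the loop (ENSMUSG00000032238, plus strand of chromosome 9), varied little. WT libraries A and B held 5.08 and 5.19 TPM at ZT0, 6.23 and 5.87 at ZT4, 6.43 and 7.69 at ZT8, 6.82 and 6.95 at ZT12, 5.80 and 6.64 at ZT16, and 6.10 and 5.16 at ZT20. In the order ZT8, ZT12, ZT16, ZT4, ZT20 and ZT0, all neighbours overlapped except ZT12 and ZT16. KO libraries A and B held 4.57 and 4.45 TPM at ZT0, 5.67 and 5.10 at ZT4, 5.04 and 5.85 at ZT8, 6.21 and 5.51 at ZT12, 3.65 and 6.16 at ZT16, and 4.37 and 5.27 at ZT20. Both KO libraries were below both WT libraries at ZT0, ZT4, ZT8 and ZT12, and the genotypes overlapped at ZT16 and ZT20. The share of all genes with such an order is not given here, so the order is only a description. With all libraries, Rora passed the genotype test at no single time (given below). The library labelled KO ZT4 A, at 5.67 TPM, lay inside the range of the other KO libraries for this gene and also inside the WT range. Rorb, the ROR beta gene, did not exceed 0.0874 TPM in any library.

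Nfil3 ran opposite to the REV-ERB genes in WT. Libraries A and B held 13.8 and 14.0 TPM at ZT0, 4.03 and 1.95 at ZT4, 0.791 and 0.634 at ZT8, 0.567 and 0.746 at ZT12, 4.45 and 3.68 at ZT16, and 11.3 and 12.1 at ZT20. The order was ZT0, ZT20, ZT16, ZT4, ZT8 and ZT12, with overlap between ZT16 and ZT4 and between ZT8 and ZT12, and the mean at ZT0 was 21.2-fold that at ZT12. In KO, A and B held 9.31 and 11.1 TPM at ZT0, 4.58 and 11.6 at ZT4, 10.4 and 11.2 at ZT8, 19.97 and 12.5 at ZT12, 11.1 and 8.85 at ZT16, and 11.9 and 8.42 at ZT20. The 4.58 TPM is again the library labelled KO ZT4 A. The other 11 KO libraries stayed between 8.42 and 19.97 TPM, with a median of 11.1 TPM, which is 79.7% of the WT mean at ZT0 and 16.9-fold the WT mean at ZT12.

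**Figure D1:**
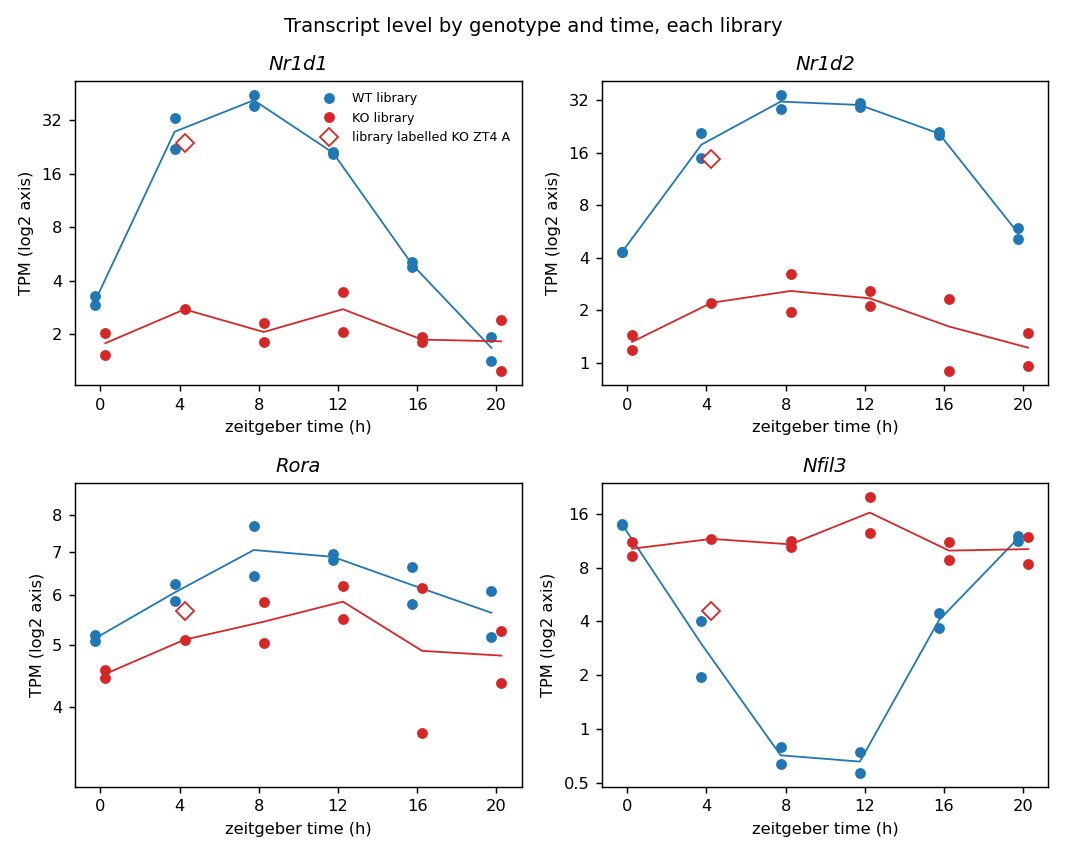
TPM of Nr1d1, Nr1d2, Rora and Nfil3 (vertical log2 axes, a different range for each gene) against zeitgeber time in hours, with each point 1 library (WT blue, KO red) and each line joining group means drawn without the library labelled KO ZT4 A (open diamond). WT Nr1d1 runs from 1.42 to 44.3 TPM while 11 KO libraries stay at or under 3.46 TPM, and for Nfil3 those KO libraries stay at or above 8.42 TPM.

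Across the day, with time as a factor, 3 of the 4 genes were lower in KO and 1 was higher (limma on log2(TPM + 0.1), Benjamini-Hochberg adjusted over all genes). On that scale Nr1d2 was lower by the most, at -2.72 (SE 0.31, adjusted p 1.66e-06, the same sign at 6 of 6 times). Nr1d1 was lower, at -1.83 (SE 0.41, adjusted p 0.000919, 5 of 6 times). Rora was lower by far less, at -0.26 (SE 0.07, adjusted p 0.00293, 6 of 6 times). Nfil3 was higher by 1.68 (SE 0.45, adjusted p 0.00407, 4 of 6 times). Of all genes tested, 10% were called lower in KO and 50.9% higher, so a higher call such as that of Nfil3 was shared by most genes, and a lower call was not.

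By size, the genotype differences of Nr1d2, Nr1d1, Nfil3 and Rora ranked 48, 161, 200 and 4790 among the 12874 genes. The median difference over all genes was 0.15, so levels in KO were shifted slightly upward. Scaling by median-of-ratios moved that median to 0.0017 and turned the calls from 6555 higher and 1289 lower into 2844 higher and 2856 lower. The 4 calls held under it, with Rora at -0.40 (SE 0.07, adjusted p 0.000119) and Nfil3 at 1.54 (SE 0.44, adjusted p 0.00898). Mitochondrially encoded RNA took 40.5% ± 1.31 of TPM in WT and 37.6% ± 1.97 in KO (SD, n = 12 each). Rescaled without mitochondrial genes, the median over all genes was 0.085, and the 4 calls held. Without the library labelled KO ZT4 A the differences were -2.02 for Nr1d1, -2.94 for Nr1d2, -0.27 for Rora and 1.78 for Nfil3, and all 4 passed.

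The genotypes were also compared at each time (adjusted over genes within the time, with the spread shared by all groups). Nr1d1 was lower in KO at ZT8, by a 20.1-fold ratio of means (log2 difference -4.27, SE 0.66, adjusted p 0.00345), and at ZT12, by a 7.58-fold ratio (-2.92, adjusted p 0.00497). At ZT20, its WT trough, the difference was 0.06 (SE 0.66, adjusted p 0.977). The share of all genes called was 14.6% at ZT8, 38.2% at ZT12 and 3.72% at ZT20. The ZT12 call of Nr1d1 was lost without KO ZT12 A (adjusted p 0.0525).

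Nr1d2 was lower at ZT8 (-3.59, adjusted p 0.00452), ZT12 (-3.63, adjusted p 0.00105) and ZT16 (-3.73, adjusted p 0.00219), each with SE 0.62. These are ratios of WT to KO means of 12.2, 12.8 and 12.7. At ZT16 21.5% of all genes were called, and there Nr1d1 differed by -1.36 (adjusted p 0.155). The ZT8 call of Nr1d2 was lost without KO ZT8 A (adjusted p 0.073).

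Nfil3 was higher in KO at ZT8 (3.75, SE 0.37, adjusted p 0.000131), where the KO mean was 15.1-fold that of WT, and at ZT12 (4.40, adjusted p 1.15e-05), where it was 24.7-fold. At ZT16 it was higher by 1.27 (adjusted p 0.0279), a call that was lost when any 1 of the 4 libraries of that time was left out (adjusted p 0.055 to 0.138). At ZT0 and ZT20, its WT maximum, the differences were -0.45 (adjusted p 0.436) and -0.22 (adjusted p 0.787). Rora passed at none of the 6 times with all libraries (adjusted p 0.146 to 0.651). Its difference at ZT16 turned on single libraries: it ran from -0.75, without KO ZT16 B, to -0.01 over left-out libraries.

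No gene was called at ZT4 by limma (0%, with 1637 of 12874 genes at an unadjusted p under 0.05), and 13.4% were called at ZT0. Without the library labelled KO ZT4 A, which leaves 1 KO library at ZT4 that is assumed to vary like the other groups, 11.6% were called at ZT4. Then Nr1d1 was lower at ZT4 by a log2 difference of -3.24 (SE 0.35, adjusted p 0.000332), Nr1d2 by -2.94 (SE 0.41, adjusted p 0.00169), and Nfil3 was higher by 2.00 (SE 0.35, adjusted p 0.0051). Nr1d1 also passed at ZT16 (adjusted p 0.00452, 25.5% of all genes called), and Nr1d2 at ZT0 (adjusted p 0.00561, 18.6%) and ZT20 (adjusted p 0.00214, 8.56%). These 3 calls were also made when KO ZT4 B was left out instead, which is not a separate check. Leaving out either KO library of ZT4 kept the differences at ZT0, ZT16 and ZT20 unchanged. Either omission takes the same disagreement between KO ZT4 A and KO ZT4 B out of the shared spread. The 3 calls thus turned on that spread and not on which library was left out. Without the library labelled KO ZT4 A, Nr1d2 passed at 6 of 6 times, Nr1d1 at 4 and Nfil3 at 4. On the log2 scale that library lay 0.18 below the WT ZT4 mean and 3.07 above KO ZT4 B for Nr1d1, and 0.68 above the WT mean and 1.32 below KO ZT4 B for Nfil3.

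**Figure D2:**
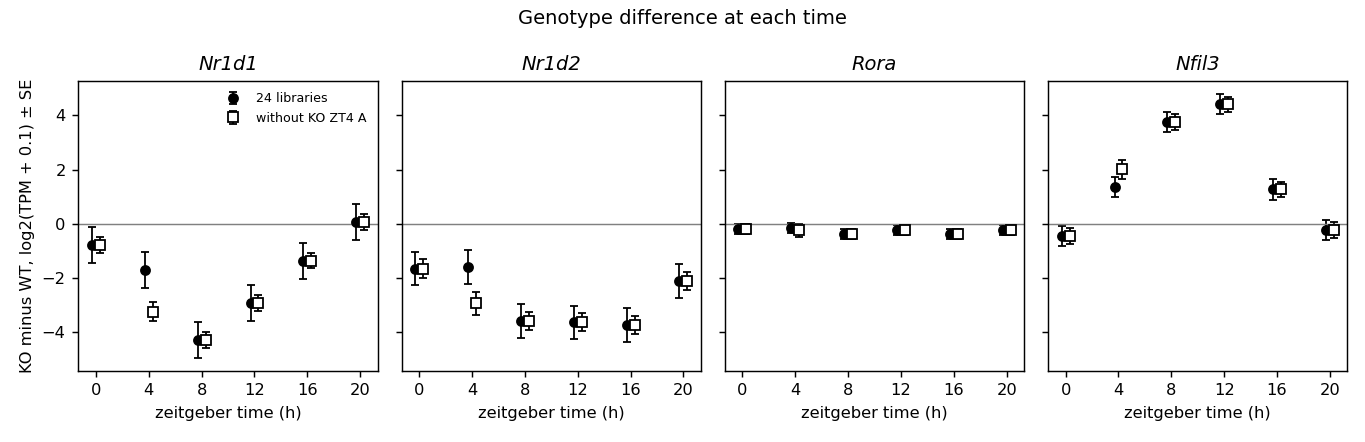
Genotype difference (KO minus WT in log2(TPM + 0.1), vertical axis) at each zeitgeber time in hours for the 4 genes. Filled circles use 24 libraries and open squares leave out the library labelled KO ZT4 A, bars are standard errors of the model, and the grey line marks 0; Nr1d1 reaches -4.27 at ZT8 and Nfil3 4.40 at ZT12, both near 0 at ZT20.

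A 24-hour cosine was fitted in each genotype, and 13.7% of all genes were called rhythmic in WT and 3.64% in KO. In WT, Nr1d1 had a peak-to-trough of 4.76 log2 units (SE 0.61, adjusted p 0.000191) with its peak at ZT 8.13 (SE 0.49 h). Nr1d2 had 3.04 (SE 0.54, adjusted p 0.003) with its peak at ZT 10.3 (SE 0.68 h). Nfil3 had 4.67 (SE 0.31, adjusted p 2.9e-08) with its peak at ZT 21.8 (SE 0.25 h). By size of the WT peak-to-trough, Nr1d1, Nfil3 and Nr1d2 ranked 34, 38 and 103 of 12874 genes. Rora had 0.43 (SE 0.13) and did not pass (adjusted p 0.0808), though it passed when WT was fitted alone (adjusted p 0.0145) or KO ZT16 A was left out (adjusted p 0.0174).

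None of the 4 genes passed the rhythm test in KO (adjusted p 0.146 to 0.411). Fitted KO peak-to-troughs were 1.35 for Nr1d1, 1.70 for Nr1d2, 0.32 for Rora and 0.63 for Nfil3, and without the library labelled KO ZT4 A they were 0.48, 1.12, 0.31 and 0.43 (adjusted p 0.0898 to 0.52). The difference in rhythm itself, tested on size and peak time together, was called for 0.629% of all genes. The peak-to-trough differences printed beside its adjusted p were not tested alone. Nfil3 was among the genes called (adjusted p 4.39e-06), with a KO peak-to-trough 4.04 log2 units under that of WT. Nr1d1 did not pass with 24 libraries (-3.41, adjusted p 0.0871) and passed without the library labelled KO ZT4 A (-4.28, adjusted p 9.29e-06), where 0.87% of all genes were called. Nr1d2 missed the threshold both ways (adjusted p 0.228 and 0.0506), as did Rora (0.882 and 0.931).

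The 2 REV-ERB transcripts were not present in a fixed ratio in WT. Nr1d1 over Nr1d2, averaged over the 2 libraries, was 0.716 at ZT0, 1.54 at ZT4, 1.34 at ZT8, 0.699 at ZT12, 0.239 at ZT16 and 0.302 at ZT20. Nr1d1 was thus the more abundant at ZT4 and ZT8 only, and Nr1d2 led from ZT12 to ZT0. In the 12 KO libraries the ratio lay between 0.562 and 2.15, and neither extreme was the library labelled KO ZT4 A. The ratio of Nr1d1 to Nfil3 ran from 0.126 to 60.6 over WT libraries. In KO it was 0.103 to 5.21, the highest being the library labelled KO ZT4 A. At the other 5 times the mean of the 2 KO libraries was 0.178 to 0.195, while single libraries ran from 0.103 to 0.286.

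Thra, the thyroid hormone receptor alpha gene, lies on the opposite strand and its 3' end overlaps Nr1d1 (98767932 to 98775333 on chromosome 11) over 1075 of the 7402 bases of Nr1d1. Whether reads were assigned by strand is not given in the sources used here, so reads of the shared stretch cannot be told apart. Outside that stretch, Thra-202 (ending at 98765111) differed by 1.15 (SE 0.13) and Thra-209 (ending at 98753638) by 2.99 (SE 0.47), KO minus WT. Nr1d1-202 (98769347 to 98770426), also outside it, differed by -1.86 (SE 0.46). The effect of the overlap on either gene was not tested. Thra was at 17.1 to 29.4 TPM in WT, at 30.3 TPM in the library labelled KO ZT4 A, and at 52.5 to 64.4 TPM in the other 11 KO libraries. It was higher in KO by 1.29 (SE 0.11, adjusted p 2.3e-07, 6 of 6 times), and by 1.39 without that library (adjusted p 2.39e-12), while Nr1d1 was lower.

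**Figure D3:**
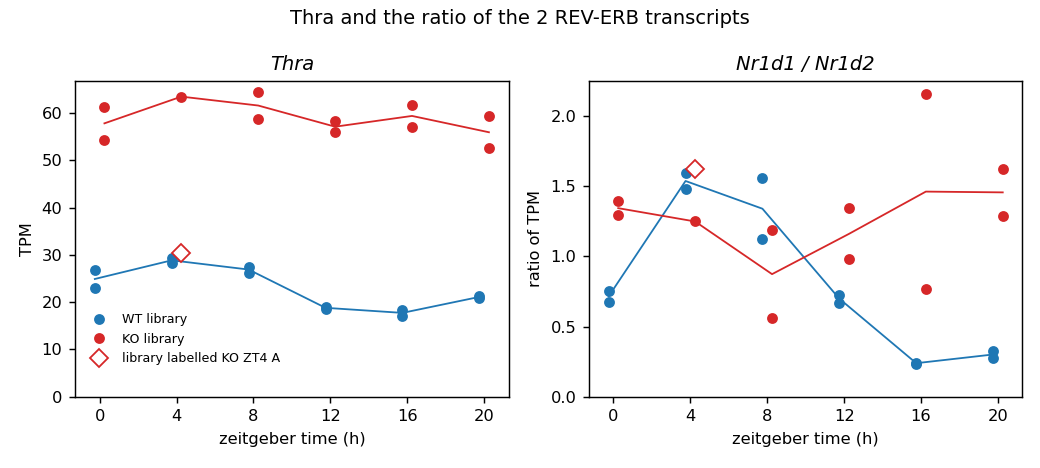
TPM of Thra (left) and the ratio of Nr1d1 to Nr1d2 TPM (right) against zeitgeber time in hours, with each point 1 library and lines joining group means drawn without the library labelled KO ZT4 A (open diamond). KO Thra stays at 52.5 TPM or more apart from that library, and the WT ratio falls from 1.54 at ZT4 to 0.239 at ZT16.

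Of the 4 RORE-driven clock genes described here (Arntl, Clock, Npas2, Cry1), 3 rose in KO and none fell, with a median difference of 1.51 against 0.15 over all genes, of which 50.9% were called higher and 10% lower. Npas2, a partner of BMAL1, was higher by 3.26 (SE 0.47, adjusted p 1.95e-05), and 11 of 12 KO libraries held 17.1 to 25.1 TPM against 0.143 to 8.14 in WT. Cry1, a repressor of CLOCK and BMAL1, was higher by 2.01 (SE 0.34, adjusted p 7.85e-05), and its 11 KO libraries held 11.5 to 17.8 TPM against 0.551 to 6.64 in WT. That pattern, every KO library but the one labelled ZT4 A above every WT library, held for Npas2 and Cry1 and for 8.34% of all genes. Clock was higher by 0.44 (SE 0.09, adjusted p 0.000454), and its median over the 11 KO libraries was 103% of its highest WT mean. Arntl differed by 1.0 (SE 0.44, adjusted p 0.057) and did not pass. All 4 were rhythmic in WT, against 13.7% of all genes, and none in KO, against 3.64%. With the library labelled KO ZT4 A left out, the genotype differences were 3.48 for Npas2, 2.23 for Cry1, 0.47 for Clock and 1.04 for Arntl, with the same calls. The difference in rhythm passed for Arntl and Npas2, and without the library labelled KO ZT4 A also for Cry1.

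Of the 10 clock genes driven by E-boxes or D-boxes, 9 were tested (Bhlhe41 had a mean of 0.738 TPM), 5 fell in KO and 1 rose, with a median of -0.44. Over all genes tested, 10% were called lower and 50.9% higher. Those that fell were Per2, Per3, Dbp, Tef and Ciart, joined by Bhlhe40 under median-of-ratios scaling. Dbp, the D-box activator, was lower by -1.64 (SE 0.52, adjusted p 0.0111), and the 11 KO libraries held 2.30 to 4.20 TPM inside a WT range of 0.989 to 71.2. Per3 was lower by -1.44 (SE 0.25, adjusted p 7.97e-05), and Ciart, a repressor of CLOCK and BMAL1, by -1.65 (SE 0.39, adjusted p 0.00154). Cry2 was the member that rose, by 0.75 (SE 0.15, adjusted p 0.000235), and the KO libraries other than the one labelled ZT4 A held 8.74 to 11.7 TPM against 3.22 to 7.95 in WT. Without that library the differences were -1.71 for Dbp, -1.53 for Per3, -1.73 for Ciart and 0.85 for Cry2, and the same 6 genes were called. In WT, 8 of the 9 were rhythmic, against 13.7% of all genes. In KO 1 was, against 3.64% of all genes. That gene was Per1 (adjusted p 0.0279), and it did not pass without the library labelled KO ZT4 A (adjusted p 0.0637).

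**Figure D4:**
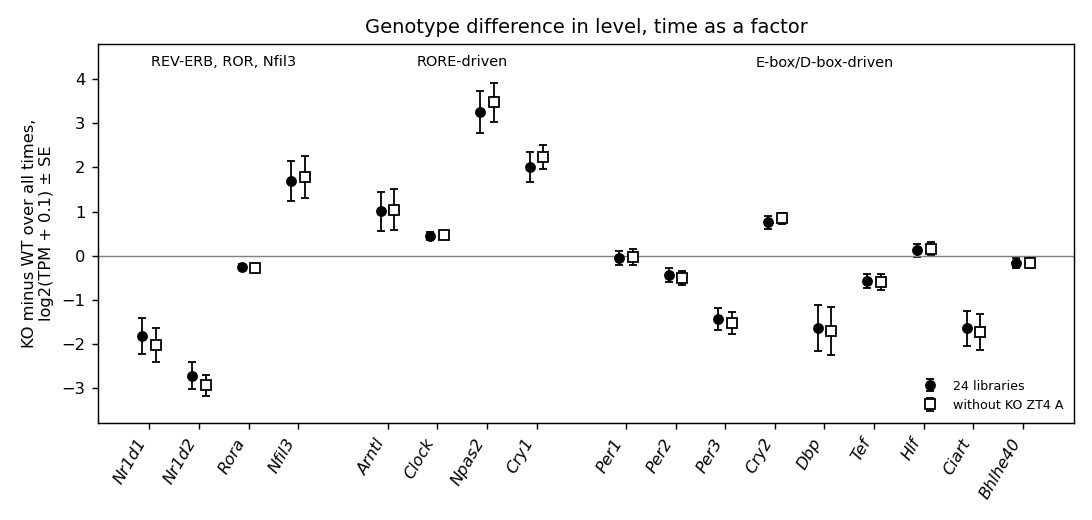
Genotype difference over all times (KO minus WT in log2(TPM + 0.1), vertical axis) for the 4 genes and for the tested RORE-driven and E-box or D-box driven clock genes. Filled circles use 24 libraries and open squares leave out the library labelled KO ZT4 A, bars are standard errors; Nr1d2 is lowest at -2.72 and Npas2 highest at 3.26.

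The partners of the loop differed by less than the REV-ERB genes and Nfil3. A higher call in KO was made for 50.9% of all genes tested and a lower call for 10%. Of 5 genes of the REV-ERB corepressor complex, 3 rose in KO, Hdac3 by 0.21, Gps2 by 0.16 and Tbl1x by 0.13, close to the shift of all genes, and none of these passed under median-of-ratios scaling, where Tbl1x was at -0.02 and Tbl1xr1 was called lower. Of 3 ROR coactivators, 2 rose: Ppargc1a by 0.47 (SE 0.08, adjusted p 9.13e-05), which also passed under that scaling (0.32, adjusted p 0.000991), and Ncoa1 by 0.15, which did not. Among 4 genes that act on REV-ERB protein turnover, Fbxw7, a ubiquitin ligase subunit, rose by 0.26 (0.11 under median-of-ratios, where Siah2 was called lower). Of 3 metabolic genes known as REV-ERB or ROR targets in other tissues, Elovl3 had a mean under 1 TPM, G6pc rose by 0.41 (adjusted p 0.0383; 0.182 under median-of-ratios) and Insig2 was at 0.07 (adjusted p 0.338). These calls held without the library labelled KO ZT4 A, and Gsk3b, which acts on turnover, was also called higher (0.13, adjusted p 0.0454).

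Single transcripts of the 4 genes were also tested on their own. Nr1d1-201 made up 88.3% of Nr1d1 TPM in WT and the non-coding Nr1d1-202 11.7%, and they were lower in KO by -1.79 (SE 0.39, adjusted p 0.00137) and -1.86 (SE 0.46, adjusted p 0.00335) over 26201 transcripts tested. Nr1d2-201 held 92.5% of Nr1d2 in WT and was at -2.73 (SE 0.30, adjusted p 2.39e-06). Nfil3 had 1 transcript. Of the 6 Rora transcripts only Rora-201 reached a mean of 1 TPM. It held 81.6% of the gene's TPM in WT and 84.6% in KO, and was at -0.20 (SE 0.07, adjusted p 0.0268). Without the library labelled KO ZT4 A the differences were -1.97 for Nr1d1-201, -2.06 for Nr1d1-202, -2.95 for Nr1d2-201 and -0.21 for Rora-201, and all 4 passed. Rora-202, which starts further downstream, held 8.54% and 7.05%.

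The genes with profiles most like each of the 4 were found by Pearson's r of log2 values, a description over libraries that share the daily cycle. Over the 12 WT libraries, Nr1d1 was most like Mettl27 (r = 0.956), Nr1d2 most like the D-box activator Dbp (r = 0.967), Rora most like Zfpm1 (r = 0.948) and Nfil3 most like Ubqln1 (r = 0.982). The most opposite profiles were Gde1 for Nr1d1 (r = -0.973) and Castor1 for Nfil3 (r = -0.974). Over all 24 libraries, which add the genotype difference, the closest were Castor1 for Nr1d1 (r = 0.879), Tmem237 for Nr1d2 (r = 0.932), Fnip2 for Rora (r = 0.878) and Leo1 for Nfil3 (r = 0.950). Among the 4 genes, Nr1d2 and Nfil3 had r = -0.939 in 12 WT libraries, -0.596 in 12 KO libraries and 0.149 in the 11 KO libraries without the one labelled ZT4 A, so the sign in KO turned on that library. Nr1d2 and Rora had r = 0.835 in WT, 0.623 in 12 KO libraries and 0.865 in those 11.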

How the data were processed

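Polyadenylated kidney RNA was measured in 24 libraries, and 20 chromatin contact libraries of the series were not used here. The authors deposited TPM per transcript, made with kallisto 0.42.4 per the submitters' processing notes, which name GRCm38 and mm10. The annotation and strand setting are not given in the sources used here. Of 88198 transcripts, 86119 were matched by identifier to GENCODE M21 and summed per gene, and the unmatched ones held 1.35% to 2.24% of TPM. Groups and replicate letters came from the labels.

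Genes averaging 1 TPM or more across the libraries were tested with limma 3.58.1 in R 4.3.3 on log2(TPM + 0.1), with trend and robust options, Benjamini-Hochberg adjustment over all genes and a threshold of 0.05. A fold on this scale understates changes of low genes. The genotype difference used time as a 6-level factor. Per-time contrasts used 12 group means. Rhythm was the F test of a 24-hour cosine and sine within each genotype, and the difference in rhythm that of their interaction with genotype. Models were first tested on simulated data. TPM keeps no depth.

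The genes named are the 4 genes of the loop, their transcripts, the targeted gene, lists of pathway genes and cell markers, and, for each of the 4, the 3 genes with the highest r, of which the first is printed. The genes and lists were chosen with earlier results of these data known, and some genes of the lists are not reported here. Marker lists covered 11 cell types or tissues. Alternatives covered the pseudocount, filter, scaling, variance model, time terms, transcript choice, replicate block, and each library left out. Leaving out the library labelled KO ZT4 A was chosen with its values known.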

Additional observations from a re-analysis of the deposited data

Results flagged for a closer look

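The difference in rhythm between genotypes was tested on size and peak time together. The values given are daily peak-to-trough, KO minus WT in log2 units, which was not tested alone. With 24 libraries the difference in rhythm passed for Nfil3 (-4.04), Arntl (-4.79), Npas2 (-3.99), Per3 (-2.49), Dbp (-5.41), Tef (-1.70) and Ciart (-3.97). In each of these the peak-to-trough was smaller in KO. The difference in rhythm passed only without the library labelled KO ZT4 A for Nr1d1 (-4.28), Cry1 (-3.07), Cry2 (-1.07) and Thra (-0.60).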

How the results depend on the processing

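The genotype call of each of the 4 genes, and each of their rhythm calls apart from those named here, held under the alternatives run. The WT rhythm of Rora passed with each genotype fitted alone (0.43, adjusted p 0.0145), where 2843 genes were rhythmic in WT and 12 in KO, and ranged from 0.38 to 0.49 over left-out libraries, passing without KO ZT16 A. For the difference in rhythm of Nr1d1, the KO minus WT peak-to-trough ranged from -4.28 to -3.05 over left-out libraries. Main counts were 1761 genes rhythmic in WT, 468 in KO and 81 differing in rhythm. With time as a 6-level factor they were 576, 28 and 23, and with 24-hour and 12-hour terms 874, 203 and 32. Without a filter, 295 genes were rhythmic in KO and 43 differed. Leaving out 1 library gave 272 to 626 rhythmic in KO (272 without KO ZT0 B) and 37 to 112 differing (37 without WT ZT4 B). Median-of-ratios scaling gave 2844 genes higher and 2856 lower in KO. Counts per time moved widely when 1 library was left out: from 1731 to 1 at ZT0 (KO ZT0 A), 0 to 1488 at ZT4 (KO ZT4 A), 1877 to 74 at ZT8 (KO ZT8 A), 4914 to 2130 at ZT12 (KO ZT12 A), 2766 to 569 at ZT16 (WT ZT16 A) and 479 to 1 at ZT20 (WT ZT20 B). At ZT20 the count was 1102 without KO ZT4 A, 1103 without KO ZT4 B and 242 without a filter, at ZT12 3125 under median-of-ratios scaling, and at ZT4 12 without a filter and 1 with a pseudocount of 1 TPM. Per-time calls of the 4 genes changed under no alternative that kept all libraries, and 10 of 24 changed when some library was left out. With 2 libraries per group and no depth, absence of a call does not show equal levels.

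Libraries with the same letter did not deviate together: r between deviations of same-letter libraries was over 0.1 in 21 of 66 pairs of groups (-0.32 to 0.34). With the letter as a replicate block, 1842 genes were rhythmic in WT, 525 in KO and 76 differed, 6579 were higher and 1294 lower, and no call of the 4 genes changed (Nr1d1 genotype difference -1.83, adjusted p 0.00127).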
